A study of Mus musculus with 2 samples.

Results

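The Krüppel-like factors Klf2, Klf3, Klf4, Klf5, Klf6, Klf7, Klf9, Klf10 and Klf13 were described in single cells of mouse embryoid bodies (EB) and yolk sac (YS). The 9 genes were taken by symbol from the 33456 genes listed for both libraries, and each was found once. They were chosen by their measured levels in these libraries, since earlier results had shown Klf2 to be high in EB cells with naive pluripotency markers and again in YS endothelial cells, so their levels are given as descriptions. The gene list holds 17 Klf genes in all, and the other 8 are given where they bear on the members.

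Krüppel-like factors are zinc finger transcription factors that bind GC-rich and CACCC sequences, and different members activate or repress. In mouse embryonic stem (ES) cells Klf2, Klf4 and Klf5 are known for supporting the naive state, the ground state of pluripotency marked by Zfp42 (Rex1). In endothelium, the lining of vessels marked by the junction protein VE-cadherin (Cdh5), Klf2 and Klf4 are known as genes that blood flow induces through the kinases MEKK3, MEK5 and ERK5 and the MEF2 factors.

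Each condition was 1 library of C57BL/6 cells made with the 10x Genomics Chromium system, so no difference between them has a replicate check and no p-value is given. EB cells came from ES cells kept with serum, LIF and feeder cells, then without feeders, and differentiated to day 4 in a serum medium towards hemangiogenic mesoderm, the source of blood and vessels. EB were dissociated for 5 minutes, and the ES line is not named. YS cells came from yolk sacs of stages E9.5 and E10.5 pooled in equal number, digested with collagenase for 30 minutes, with about 70% of the red cells that carry Ter119 sorted out, which sets the share of red cells. Both suspensions were frozen and sorted for live cells, and neither carries an engineered allele or drug treatment in the labels.

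The analysis used 1878 EB cells and 775 YS cells, with a median of 25547 and 28461 UMIs per cell, a UMI being a molecular tag that counts 1 captured transcript. The libraries shared 2 cell barcodes. Levels are CPM, a gene's UMIs over a group of cells, scaled to one total for all groups, and brackets hold 95% intervals (exact Poisson for a level, exact conditional binomial for a ratio, Clopper-Pearson for a share) that cover counting error only. CPM are compared between cells for 1 gene at a time. Each library gave 13 clusters, made without any of the 17 Klf genes and named "-like" from marker genes. The YS endothelial-like cluster (48 cells) had 16 of 16 endothelial markers raised, meaning 2-fold above the rest of the library after 20 CPM were added to both and present in 25% of the cluster. Of 12 macrophage markers 1 passed that fold and 4 (C1qa, C1qb, C1qc and Adgre1) were at 0 UMIs, and the list summed to 451 CPM against 808 CPM in other YS cells. The EB cluster called naive pluripotent-like (143 cells) was mixed: 4 of 12 naive markers and 4 of 12 epiblast markers were raised, and 65 of its cells had no Zfp42 UMI.

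The promoters of Klf2 and Klf4 are shown because the MEF2 route named above acts on both genes in endothelium. The windows run from 250 bases before to 50 after the RefSeq start (GRCm38.p6): chr8:72318812-72319111 on the plus strand for Klf2 and chr4:55532426-55532725 on the minus strand for Klf4. Capitals mark CTANNNNTA, a loose form of the MEF2 motif, and GGGGCGGGG, a GC box, each searched on both strands. The MEF2 matches of the 2 strands overlap each other in Klf2, and none overlaps a GC box.
Klf2: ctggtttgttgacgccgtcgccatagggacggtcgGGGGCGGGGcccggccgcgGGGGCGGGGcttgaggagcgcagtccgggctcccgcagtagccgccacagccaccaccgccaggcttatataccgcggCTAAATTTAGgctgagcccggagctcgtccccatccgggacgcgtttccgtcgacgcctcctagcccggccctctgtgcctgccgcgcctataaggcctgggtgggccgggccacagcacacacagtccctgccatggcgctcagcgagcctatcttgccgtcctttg
Klf4: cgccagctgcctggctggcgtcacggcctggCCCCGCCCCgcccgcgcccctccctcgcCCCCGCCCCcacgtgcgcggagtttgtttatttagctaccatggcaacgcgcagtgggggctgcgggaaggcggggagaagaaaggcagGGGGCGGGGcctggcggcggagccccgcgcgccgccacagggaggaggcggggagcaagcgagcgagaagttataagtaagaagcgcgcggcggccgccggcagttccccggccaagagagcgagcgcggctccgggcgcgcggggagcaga
The MEF2 form lies at 1 place in the Klf2 window, starting 118 bases before the start, and in none of the Klf4 window. It was found in 2 of the 7 members with a window (Klf2 and Klf9, not Klf3, Klf4, Klf6, Klf7 or Klf13), and 21.04% of the 32851 promoter windows of this length hold it. Klf2 holds 2 GC boxes and Klf4 holds 3, and 4 of the 7 members hold at least 1, against 11.45% of all windows. The CACCC form CCACACCC, in 3.562% of all windows, was in 0 of the 7. The forms were chosen after these sequences had been seen, so the counts are no test against all windows. The 7 windows are also rich in G and C, from 58.33% (Klf7) to 76.67% (Klf3). These are matches of letters, and no binding was measured.

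Klf2 (chr8:72319033-72321656, plus strand, GENCODE M21 on GRCm38) was high in 1 EB cluster and in 1 YS cluster above all others. Over all cells it stood at 21.5 CPM (20.3 to 22.9) in EB and 76.5 CPM (73.1 to 80.1) in YS. In EB the naive pluripotent-like cluster reached 202 CPM (188 to 216) and held 72.6% of the library's Klf2 UMIs. The germ cell-like cluster followed at 46.4 CPM, an unnamed cluster led by Sfn, Nefl and Krt19 at 16.1 CPM, and the other 10 EB clusters lay between 0.726 and 4.89 CPM. The intervals of those leading 3 clusters did not overlap each other.

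In YS the endothelial-like cluster had the highest Klf2 level, 452 CPM (405 to 503), ahead of the macrophage-like cluster at 214 CPM (190 to 241). Granulocyte and mast cell-like cells stood at 126 CPM, hematopoietic progenitor-like cells at 98.9 CPM and megakaryocyte-like cells at 92.1 CPM, and the last 2 had overlapping intervals. Smooth muscle-like cells had 52.4 CPM and mesothelial-like cells 28.3 CPM. Erythroid-like cells had 1.64 CPM (0.751 to 3.12), the low end among the named classes. A mesenchymal and fibroblast-like cluster of 10 cells had 0 UMIs, where 3 UMIs would give 18.5 CPM.

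**Figure D1:**
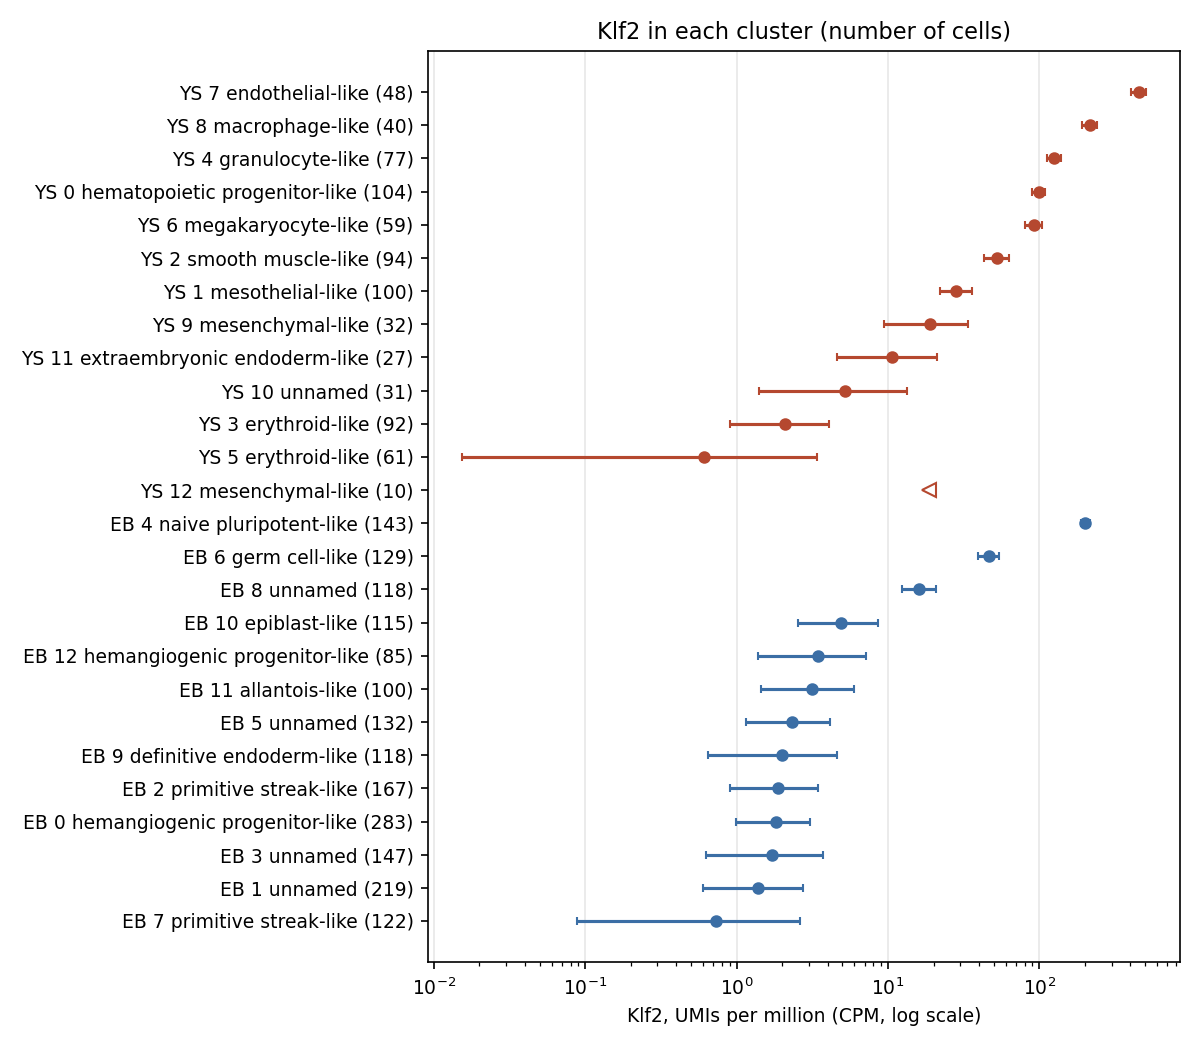
Klf2 level in each of the 13 EB (blue) and 13 YS (red) clusters, in CPM on a log axis, with 95% Poisson intervals and the number of cells in brackets; the open triangle marks the cluster with 0 UMIs at the level that 3 UMIs would give. Klf2 peaked in the naive pluripotent-like cluster of EB (202 CPM) and the endothelial-like cluster of YS (452 CPM).

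The question of whether Klf2 is higher at the endothelial or at the naive end had no single answer, because it turned on which EB cells were counted as naive. Between the 2 clusters the endothelial-like level was 2.24-fold higher (1.97 to 2.55). Klf2 was higher in EB cells with more Zfp42, from 6.69 CPM in the 1601 cells with 0 Zfp42 UMIs to 25.9 CPM at 1 UMI, 57.4 CPM at 2 to 4, 505 CPM at 5 to 9 and 721 CPM (653 to 793) in the 22 cells with 10 or more. The 32 cells with at least 5 Zfp42 UMIs all lay in the naive pluripotent-like cluster, all had Klf2, and together stood at 656 CPM (602 to 714).

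Within that cluster the 46 cells with 1 to 4 Zfp42 UMIs had 112 CPM of Klf2 and the 65 cells with none had 50.7 CPM. Klf2 in YS was higher in the bins with more Cdh5, from 64.1 CPM in 683 cells with no Cdh5 UMI to 76.6, 110, 361 and 634 CPM in the same bins. The highest bin had 10 cells and leaned on 1 of them, which held 98 Klf2 UMIs. Outside the endothelial-like cluster, cells with and without Cdh5 differed little, with 71.1 CPM in 46 cells and 64.1 CPM in 681. Of the 33 cells with at least 5 Cdh5 UMIs, 30 lay in the endothelial-like cluster. Among YS cells with at least 5 Cdh5 UMIs (33 cells) Klf2 stood at 451 CPM (401 to 506), and at 322 CPM without the cell with 98 UMIs. With these stricter groups the order turned: Klf2 was 1.45-fold higher (1.26 to 1.68) in the Zfp42 cells than in the Cdh5 cells. The stricter groups were chosen after the values were seen. With at least 2 UMIs of either gene the levels were 241 and 265 CPM, a ratio of 1.10. Of those 86 EB cells 53 lay in the naive pluripotent-like cluster, and of those 62 YS cells 45 lay in the endothelial-like cluster. At a coarser cluster resolution of 0.6 the ratio of endothelial-like over naive pluripotent-like cells was 0.907, and with a mitochondrial limit of 5% it was 1.20.

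**Figure D2:**
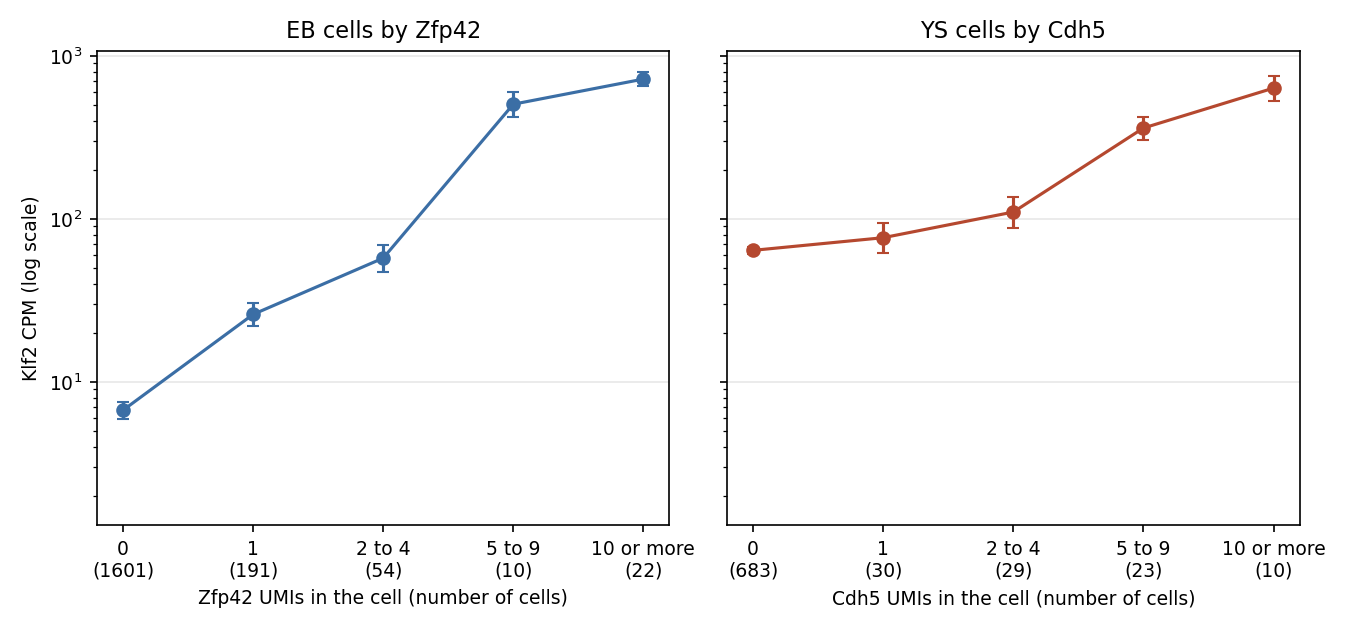
Klf2 level in CPM (log axis) in EB cells binned by their Zfp42 UMIs (left) and YS cells binned by their Cdh5 UMIs (right), with 95% Poisson intervals and the number of cells in brackets. The highest bins reached 721 CPM in EB and 634 CPM in YS, with intervals that overlap. The highest YS bin has 10 cells and leans on 1 of them, which held 98 Klf2 UMIs.

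Single cells varied widely within each group. Per-cell Klf2 in the naive pluripotent-like cluster ran from 0 to 2478 CPM with a median of 30.2, and 68 of 143 cells had no UMI. Among the 32 cells with at least 5 Zfp42 UMIs it ran from 84.9 to 2071 CPM with a median of 597. In endothelial-like cells it ran from 0 to 2513 CPM with a median of 180, and 9 of 48 cells had none.

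The endothelial level leaned on few cells: 5 cells held 53.3% of the Klf2 UMIs, and without the 1 cell with 98 UMIs it fell from 452 to 341 CPM. The naive pluripotent-like level without its top cell was 184 CPM. EB cells above 300 CPM numbered 37 in the naive pluripotent-like cluster, 24 of them with at least 5 Zfp42 UMIs, and 8 in the germ cell-like cluster.

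A Klf2 UMI was seen in 81.2% of endothelial-like cells (67.4% to 91.0%) at a median of 13184 UMIs a cell, and in 52.4% of naive pluripotent-like cells (43.9% to 60.9%) at 28109. With every cell thinned to 6000 UMIs the shares were 68.8% and 37.1%. Erythroid-like cells, in which Klf2 was nearly absent, showed it in 5.88% at a median of 33128 UMIs and in 1.31% after thinning. From free RNA alone, as measured in empty droplets, a Klf2 UMI would appear in 0.227% of EB and 0.573% of YS cells. The shares in both main groups lay far above those values.

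Cells rich in Zfp42 carried naive markers beside Klf2, but not naive markers alone. In the cells with at least 5 Zfp42 UMIs epiblast markers summed to 2325 CPM, against 1193 CPM in other EB cells. Germ cell markers summed to 795 against 375 CPM. Primitive streak and nascent mesoderm markers were lower, at 464 against 2396 CPM. In the 32 cells with at least 5 Zfp42 UMIs, Dppa5a stood at 6255 CPM, Tdh (threonine dehydrogenase) at 477, Dppa3 at 143 and Nanog at 129, against 700, 13.0, 3.33 and 49.8 CPM over all EB cells. Of 12 naive markers 10 were at least 2-fold higher there than in other EB cells, where 12.2% of genes were. Another 1 was lower, where 11.7% were, but Zfp42 chose the cells and is on the list. By the same fold, without the further conditions of the naming rule, 10 were higher in the whole cluster as well, where 9.34% of genes were. Another 2 were lower in it, where 8.58% were. With the 20 CPM of that rule added, 8 were higher in the Zfp42 cells and 5 in the whole cluster. Of 16 endothelial markers 8 were at 0 UMIs in the Zfp42 cells, Cdh5, Tie1, Tek and Emcn among them, where 3 UMIs would give 3.61 CPM, and the list summed to 114 CPM against 169 CPM in other EB cells. In endothelial-like cells 10 of the 12 naive markers were at 0 UMIs, Zfp42 and Nanog among them, where 3 UMIs would give 4.04 CPM.

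Klf4 and Klf5 are the other members tied to self-renewal of ES cells. Klf4 (chr4:55527143-55532466, minus strand) was sparse, with 199 UMIs in EB and 133 in YS, and stood at 3.93 and 5.50 CPM. Its EB levels ran from 1.09 to 6.61 CPM, highest in the naive pluripotent-like cluster but overlapping with the next. In YS it peaked in the endothelial-like cluster at 18.8 CPM (10.3 to 31.6, 14 UMIs) and in mesothelial-like cells at 18.8 CPM (13.8 to 24.9), with overlapping intervals. It was at 12.0 CPM (5.78 to 22.2) on 10 UMIs in the cells with at least 5 Zfp42 UMIs.

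Klf5 (chr14:99298691-99315036, plus strand) was found mostly in EB, with 20.8 CPM there and 2.69 CPM in YS, 7.75-fold apart (6.03 to 10.1). Its highest EB levels were 60.6 CPM (53.0 to 69.0) in the unnamed cluster led by Sfn, Nefl and Krt19 and 51.2 CPM (43.8 to 59.5) in germ cell-like cells. The naive pluripotent-like cluster had 26.2 CPM, and the cells with at least 5 Zfp42 UMIs had 39.7 CPM. In the endothelial-like cluster 1 Klf5 UMI was counted. The highest YS level was 12.0 CPM, in extraembryonic endoderm-like cells, overlapping with the next.

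Klf9 (chr19:23141226-23168134, plus strand), a repressor of the group that binds the corepressor SIN3A, was the second member with an EB bias. It stood at 39.2 CPM in EB and 5.13 in YS, 7.64-fold apart (6.37 to 9.24). In EB it was seen in every cluster, from 17.5 CPM in germ cell-like cells to 71.8 CPM (61.5 to 83.2) in epiblast-like cells, with the naive pluripotent-like cluster next at 64.1 CPM and an overlapping interval. In YS only the extraembryonic endoderm-like cluster reached such a level, 62.9 CPM (46.2 to 83.6), and the other 12 clusters lay at or below 6.43 CPM. Of the 124 Klf9 UMIs in YS cells, 47 were in those 27 cells.

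Klf13 (chr7:63886351-63938915, minus strand), of the same group as Klf9, was level between the libraries at 45.1 CPM in EB and 45.6 in YS, a ratio of 0.987 (0.919 to 1.06). Within them it was uneven. The endothelial-like cluster had 117 CPM (93.8 to 144), overlapping with the next YS cluster at 84.4 CPM (65.1 to 108), and in EB the hemangiogenic progenitor-like cluster with 8 of 12 of its markers raised had 93.8 CPM (81.0 to 108), above the next EB cluster at 59.8 CPM. The larger hemangiogenic progenitor-like cluster, led by Etv2 and Kdr, had 52.6 CPM.

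Klf7 (chr1:64029447-64122282, minus strand) was the member with the largest ratio between the endothelial-like and naive pluripotent-like clusters after Klf5 and Klf9. It stood at 129 CPM (105 to 158) in the former and 16.0 CPM (12.3 to 20.5) in the latter, 8.07-fold higher (5.81 to 11.3). In YS the next levels were 61.8 CPM (29.6 to 114) in the mesenchymal and fibroblast-like cluster of 10 cells, whose interval overlapped the endothelial-like one, and 59.96 CPM in smooth muscle-like cells, and in EB it ran from 6.30 to 25.04 CPM.

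Klf10 (chr15:38291463-38300706, minus strand), known as an early gene of TGF-beta signalling, was also highest in endothelial-like cells at 56.5 CPM (40.7 to 76.4). That interval overlapped the extraembryonic endoderm-like level of 42.8 CPM. In EB it peaked in definitive endoderm-like cells at 27.8 CPM (21.7 to 35.1). Over all cells it was 13.5 CPM in EB and 19.5 CPM in YS.

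Klf3 (chr5:64803388-64832901, plus strand), a repressor that binds the corepressor CtBP and is known as a target of Klf1 in red cells, stood at 12.5 CPM in EB and 29.2 CPM in YS. Its YS level had separate peaks in the erythroid-like clusters, 62.0 and 79.3 CPM, and in the endothelial-like cluster, 75.4 CPM (56.9 to 97.9). Erythroid-like cells held 52.1% of its YS UMIs. Klf1, the erythroid member of the family, was at 226 and 245 CPM in those erythroid-like clusters and at 4.04 CPM (3 UMIs) in endothelial-like cells. In EB Klf3 varied less, from 6.72 to 22.4 CPM, and it was at 42.2 CPM (29.4 to 58.6) in the cells with at least 5 Zfp42 UMIs.

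Klf6 (chr13:5861482-5870394, plus strand), known as a rapidly induced gene of injured endothelium and other cells, was broad. It stood at 54.0 CPM in EB and 97.2 CPM in YS. An unnamed YS cluster led by Id2, Crabp2 and Sox11 was highest at 279 CPM (243 to 319), macrophage-like cells had 176 CPM and endothelial-like cells 131 CPM, and erythroid-like clusters had 9.90 and 16.5 CPM. In EB the allantois and extraembryonic mesoderm-like cluster (114 CPM) and the definitive endoderm-like cluster (113 CPM) were highest. The cells with at least 5 Zfp42 UMIs had 26.5 CPM, 2.06-fold lower (1.36 to 3.29) than other EB cells.

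**Figure D3:**
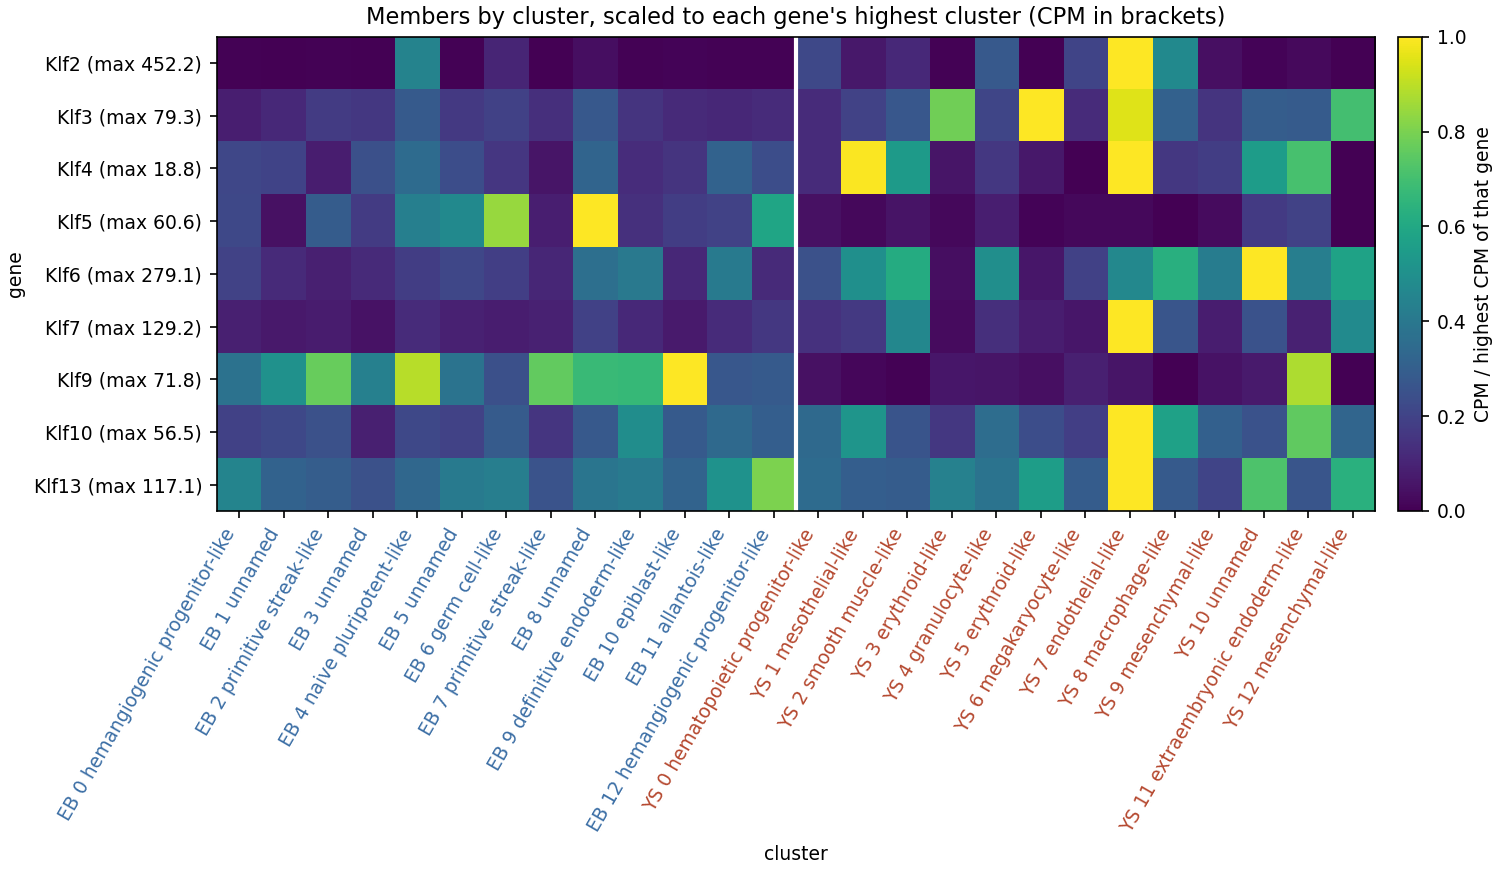
Level of each member in the 13 EB (blue names) and 13 YS (red names) clusters, as a share of that gene's own highest cluster, whose CPM stands beside the gene name, so shades are compared along a row. The endothelial-like column holds the maximum of Klf2, Klf4, Klf7, Klf10 and Klf13, and the bright cells of Klf5 and Klf9 lie in EB columns apart from Klf9 in YS extraembryonic endoderm-like cells.

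Counted against all genes, 2 members (Klf2 and Klf3) were at least 2-fold higher in YS than in EB cells, where 21.5% of the 15621 genes with 10 or more UMIs were, and 2 (Klf5 and Klf9) were at least 2-fold higher in EB, where 18.5% were. The share of members is near those backgrounds. The place of Klf3 depended on the red cells: without the erythroid-like clusters its log2 ratio of EB over YS moved from -1.22 to -0.54, while Klf6 and Klf7 passed 2-fold at -1.18 and -1.15. With cells weighted equally 4 members (Klf2, Klf3, Klf6 and Klf7) were at least 2-fold higher in YS. The share of all genes was not computed under these settings, so the counts there have no background beside them. For EB over YS the members had a median log2 ratio of -0.53, beside 0.00 for all genes.

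Between the endothelial-like and naive pluripotent-like clusters all 9 members differed by 2-fold or more. Klf2, Klf3, Klf4, Klf6, Klf7, Klf10 and Klf13 were higher in the endothelial-like cluster, 7 of 9 where 26.9% of all genes were, and Klf5 and Klf9 were higher in the naive one, where 17.2% were. Klf3 was 3.37-fold higher (2.37 to 4.76), Klf10 4.63-fold (2.99 to 7.16) and Klf13 3.01-fold (2.29 to 3.94) in endothelial-like cells. The members' median log2 ratio was 1.51, beside 0.14 for all genes.

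With cells of at least 5 Cdh5 or Zfp42 UMIs the count in the endothelial direction was 4 (Klf6, Klf7, Klf10 and Klf13), where 33% of all genes were, and Klf5 and Klf9 kept the naive direction, where 15.2% were. There Klf7 was 10.1-fold higher (5.23 to 22.0) in the Cdh5 cells and Klf9 was 15.1-fold higher (4.90 to 75.2) in the Zfp42 cells. Klf4, 20.1 against 12.0 CPM, had an interval of the ratio that held 1 (0.676 to 4.25).

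**Figure D4:**
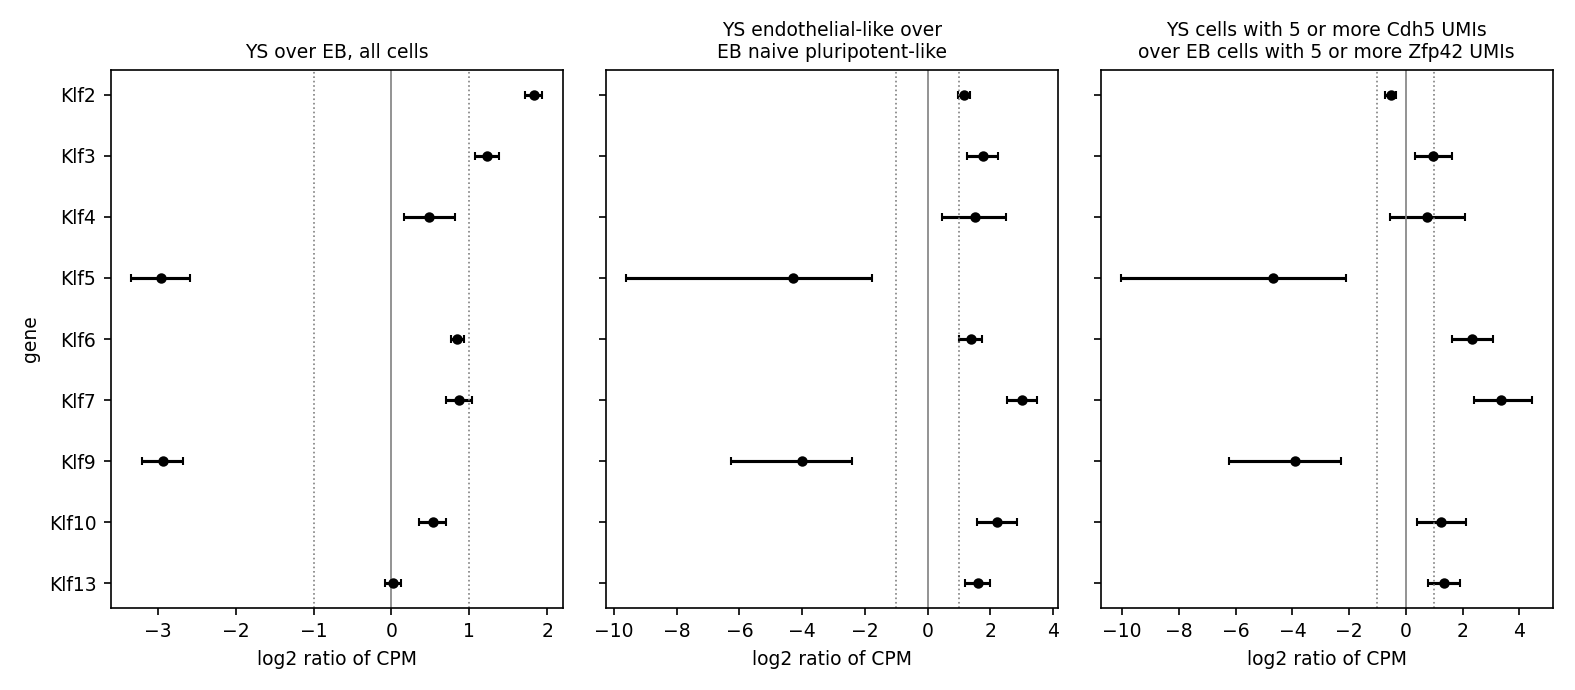
Log2 ratio of CPM for each member in YS over EB cells (left), YS endothelial-like over EB naive pluripotent-like cells (middle) and YS cells with 5 or more Cdh5 UMIs over EB cells with 5 or more Zfp42 UMIs (right), with 95% counting intervals; dotted lines mark 2-fold and the x axes differ in range. Klf5 and Klf9 lie to the EB side in each panel, while Klf2 moves from a 2.24-fold excess in the endothelial-like cluster to a 1.45-fold excess in the Zfp42 cells.

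Inside each library the 2 groups differed in how many members set them apart. In EB the naive pluripotent-like cluster differed by 2-fold in Klf2 alone, 31.5-fold higher (27.6 to 36.1) than in other EB cells, where 9.34% of genes were higher and 8.58% lower. The cells with at least 5 Zfp42 UMIs were higher in Klf2 (59.8-fold), Klf3 (3.51-fold, 2.42 to 4.94) and Klf4 (3.18-fold, 1.499 to 5.97), where 12.2% of genes were, and lower in Klf6, where 11.7% were. In YS the endothelial-like cluster was higher than other cells in 6 members, where 20.8% of genes were. These were Klf2 (6.997-fold, 6.20 to 7.88), Klf3, Klf4 (3.71-fold, 1.97 to 6.48), Klf7 (6.54-fold, 5.19 to 8.17), Klf10 and Klf13. Klf5 was on the lower side by its 1 UMI (0.493-fold, 0.0123 to 2.85), where 10.4% of genes were. Against macrophage-like cells, the YS cluster next in Klf2, 5 of the 7 members with enough UMIs were higher (Klf2, Klf3, Klf4, Klf7 and Klf13), where 23.3% of genes were, none was lower, where 14.3% were, and Klf6 was at 131 against 176 CPM.

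For the upstream route of endothelial Klf2, transcripts were counted for 12 genes of the MEKK3, MEK5, ERK5 and MEF2 pathway and the CCM complex. That complex restrains MEKK3. Endothelial-like cells were at least 2-fold above naive pluripotent-like cells in 8 of 12, where 26.9% of all genes were, with a median log2 ratio of 1.40 beside 0.14 for all genes. They were above other YS cells in 4 of 12, where 20.8% of genes were. Heg1, the CCM receptor, stood at 37.7 CPM against 5.38 in other YS cells, Map3k3 (MEKK3) at 25.6 against 5.93, Mef2a at 61.9 against 19.9 and the flow sensor Piezo1 at 53.8 against 20.4. Mef2c was at 88.8 CPM in endothelial-like and 231 CPM in macrophage-like cells. None of the 12 was at least 2-fold higher in the naive cluster than in other EB cells, where 9.34% of genes were, and 1 was lower, where 8.58% were. Those counts are near the background.

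Genes that KLF2 or KLF4 are known to raise in endothelium were present in the endothelial-like cells. Of the 5 of 6 with enough UMIs all were higher than in other YS cells, where 20.8% of genes were, with a median log2 ratio of 4.62 beside 0.04 for all genes: Nos3, the endothelial nitric oxide synthase, at 55.2 CPM (39.6 to 74.9), Thbd (thrombomodulin) at 61.9, S1pr1 at 92.9, Aqp1 at 12.1 and the angiopoietin receptor Tek at 122. Tek is also one of the markers that named the cluster. Nos3 was at 2.41 CPM and Thbd, S1pr1, Aqp1 and Tek were at 0 UMIs in the cells with at least 5 Zfp42 UMIs, where Klf2 was at 656 CPM.

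Of the 6 genes that the same factors are known to lower, 3 were higher in endothelial-like than in other YS cells, where 20.8% of genes were. Another 1 was lower, where 10.4% were. Their median log2 ratio was 1.71, beside 0.04 for all genes, the same direction as the list of raised genes. Edn1, Angpt2 and Icam1 were higher in endothelial-like than in other YS cells, Icam1 at 101 CPM (79.4 to 127) against 17.6. Ccl2 had 0 UMIs there and 120 CPM in macrophage-like cells. Vcam1 had 1 UMI.

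Transcripts of the LIF and STAT3 route, which feeds Klf4 in ES cells, were not raised at the naive end. Only RNA was counted, so the activity of the route was not measured. Lifr, Il6st, Jak1, Stat3 and Socs3 were each at least 2-fold higher in endothelial-like than in naive pluripotent-like cells, where 26.9% of genes were, with Jak1 at 117 against 18.1 CPM and Socs3 at 35.0 against 3.31. None of the 5 differed by 2-fold between the naive pluripotent-like cluster and other EB cells, where 9.34% of genes were higher and 8.58% lower. For so short a list that count is near the background. Among partners of KLF proteins, Ctbp2 was at 77.3 CPM in the naive pluripotent-like and 52.5 in the endothelial-like cluster, and the histone deacetylase Hdac1 at 84.4 and 254 CPM.

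Other Klf genes and the related Sp genes gave further contrasts between the libraries. Klf15 was at 10.48 CPM in EB and 1.32 in YS, Klf14 reached 31.8 CPM in YS smooth muscle-like cells, and Klf17 had 0 UMIs in both libraries. Sp5, known as a Wnt target of the streak, was at 121 CPM in EB and 0.248 in YS. It was at 93.8 CPM in the naive pluripotent-like cluster and 12.0 CPM in its cells with at least 5 Zfp42 UMIs, the reverse of Klf2.

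Immediate early genes, known to be induced by tissue digestion, differed between the libraries. Their summed level was 381 CPM in EB and 1256 in YS, 400 in the naive pluripotent-like and 1357 in the endothelial-like cluster, and 10 of 14 were at least 2-fold higher in YS, where 21.5% of all genes were. Over the 13 YS clusters the Pearson r of the members with that sum ran from -0.63 (Klf3) to 0.81 (Klf6), with Klf2 at 0.54. Over the 13 EB clusters it ran from -0.11 (Klf9) to 0.85 (Klf5), with Klf7 at 0.77 and Klf2 at 0.33. Over all 26 clusters Klf9 had -0.68. Clusters of a library share its handling and depth, so these are descriptions.

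Each cluster was also split in 2 by its cells' immediate early levels, which lowers those levels but does not match them between clusters. The lower endothelial-like cells still held 772 CPM of immediate early genes, above the 238 and 540 CPM of the 2 naive pluripotent-like parts. In the 24 endothelial-like cells with fewer immediate early UMIs per UMI Klf2 was 404 CPM, and it was 491 CPM in the others. In macrophage-like cells the same split gave 134 and 310 CPM, and in naive pluripotent-like cells 144 and 251 CPM. Klf6 in naive pluripotent-like cells was at 19.8 and 76.7 CPM. With only the cells of each library low in immediate early genes, the log2 ratio of EB over YS moved from -0.85 to -0.23 for Klf6. For Klf4 it moved from -0.49 to -0.04. That YS part was drawn from all YS cells, and erythroid-like cells, at 320 CPM of immediate early genes, were low in both members. In it Klf6 was at 49.4 CPM and Klf4 at 2.94 CPM. Outside the erythroid-like clusters the lower YS part had 91.8 and 5.39 CPM, against 42.1 and 2.86 CPM in EB. No member but Klf13, which lies near 0, changed sign under this setting or the other 7 alternatives. What part of any difference came from dissociation was not tested, and dissociation cannot be told apart from the library.

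**Figure D5:**
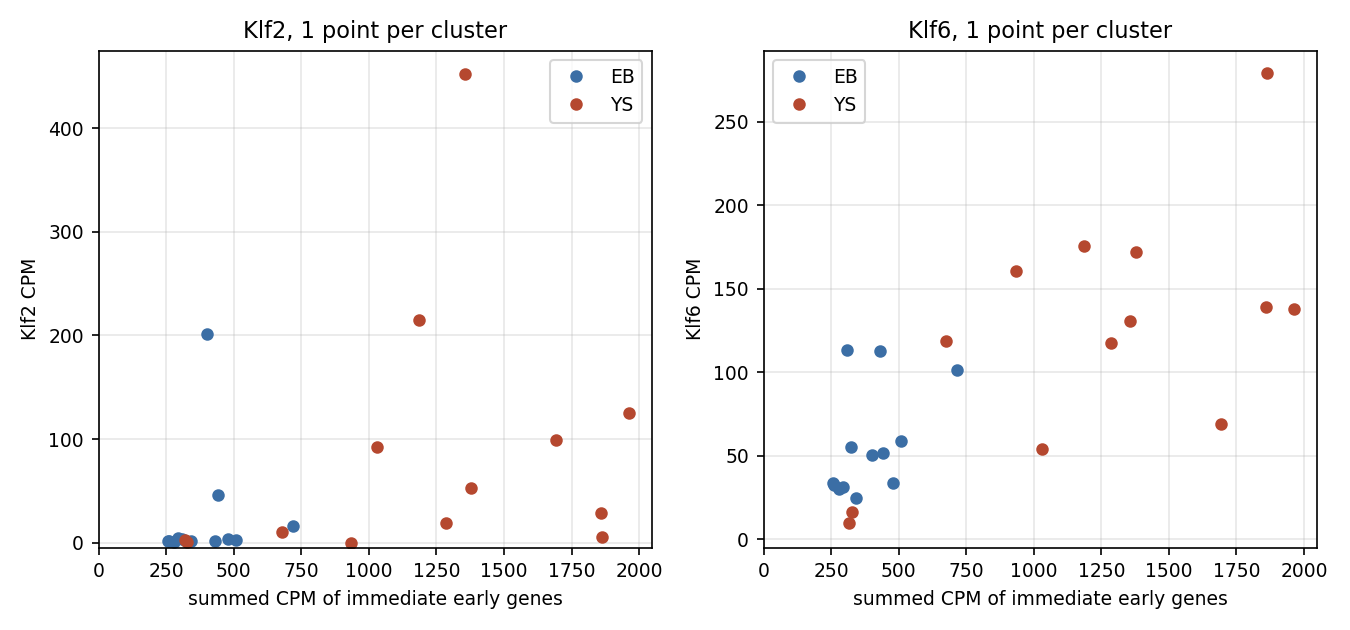
Klf2 (left) and Klf6 (right) level against the summed level of immediate early genes, both in CPM, with 1 point per cluster of EB (blue) and YS (red). Klf6 is low in the YS clusters with the fewest immediate early UMIs, which are the erythroid-like ones (318 and 326 CPM of immediate early genes). The highest Klf2 points of both libraries stand off from the rest at 400 and 1357 CPM of immediate early genes.

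The genes whose level over the 26 clusters ran most like that of Klf2 were Sipa1 (r = 0.83), Twf2 (0.82), Arpc3 (0.81), Actr2, Fam111a, Tm6sf1, Lyn and Capza1, out of 3069 genes. In the 13 YS clusters alone r ran over these 8 genes from 0.86 (Twf2) to 0.95 (Sipa1), and in the 13 EB clusters from -0.60 (Lyn) to 0.75 (Twf2). For Klf4 the nearest were Tspan9 (0.77) and the basement membrane collagen gene Col4a1 (0.75), for Klf5 Acta1 (0.85), Sfn (0.82) and Cdkn1a (0.82), and for Klf6 Actb (0.87) and Mtpn (0.84).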

How the data were processed

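Each library is a droplet single-cell RNA library (10x Genomics Chromium, HiSeq2500, per the labels' protocols). What was deposited is a table of raw UMI counts for genes and barcodes, made by the authors against mm10 per the submitters' processing notes, with 737280 barcodes listed and no filter to cells. The aligner, counter, annotation and use of strand were not given in the sources used here, so Klf3, Klf7, Klf9 and Klf13, which overlap other annotated genes, may share reads with them.

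Barcodes with at least 6172 (EB) or 6537 (YS) UMIs, 200 genes and at most 10% mitochondrial UMIs were kept. In EB 2020 passed the UMI minimum and 142 of these failed the mitochondrial limit, and in YS 801 and 26. No doublet caller was run, and an alternative leaves out the 5% of cells with the most UMIs. Library totals were 73915225 and 30294678 UMIs. Clusters came from 2000 variable genes without the 17 Klf genes, 30 components, 15 neighbours and Leiden at resolution 1 (scanpy 1.11.5, leidenalg 0.10.2, Python 3.11.15, seed 1). A name needed at least 3 markers that were 2-fold above the rest of the library (with 20 CPM added to both) and present in 25% of the cluster.

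Counts were summed over cells and scaled to CPM. A gene was compared when both groups together held 10 UMIs or more and called at 2-fold. A count of 0 stood at 3 UMIs, as a bound. Intervals were checked on simulated data. Named genes were the members, the function lists, other Klf and Sp genes, and the 8 genes most like Klf2, Klf4, Klf5 and Klf6 by Pearson r of log2(CPM + 10) among genes reaching 100 CPM, of which the text gives some. One gene of the function lists is not reported here. The members, lists, rules and alternatives were chosen with earlier results of these data known. GENCODE M21 (GRCm38) holds 32655 of the identifiers. Promoters are from RefSeq, which gave none here for Klf5 and Klf10. The motif forms were chosen after the sequences had been seen, and a stricter form of the MEF2 motif is held by fewer windows and fewer members.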

Additional observations from a re-analysis of the deposited data

Results flagged for a closer look

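Klf2 was also seen in the 142 EB barcodes left out for a high mitochondrial share. They held 23 Klf2 UMIs, 23.8 CPM of nuclear-genome UMIs (15.1 to 35.7), against a floor of 3.10 CPM for 3 UMIs and 22.2 CPM on the same scale in the cells kept. The result lies outside the cells compared in the report, and its level is within counting error of theirs.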

How the results depend on the processing

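No paired analysis was possible because each group is 1 library, and for the same reason no replicate could be left out. The Klf2 ratio of YS endothelial-like over EB naive pluripotent-like cells, 2.24 as reported, stayed within its counting interval under 5 of 12 alternatives. It was 1.20 at a mitochondrial limit of 5% and 2.80 in the cells of each cluster low in immediate early genes. With 1000 variable genes it was 1.67, and with Klf genes kept among the variable genes it was 1.20. Cells chosen by at least 2 Zfp42 or Cdh5 UMIs, in place of the clusters, gave 1.10. The ratio turned to 0.907 at resolution 0.6 and to 0.688 with cells chosen by at least 5 such UMIs, an alternative added after seeing the data. The naive pluripotent-like level ran from 144 to 656 CPM over 12 alternatives and the endothelial-like level from 265 to 467 CPM. The 656 and 265 CPM ends came from cells chosen by Zfp42 or Cdh5 UMIs, whatever their cluster. The number of members at least 2-fold higher in EB was 2 under all 8 alternatives. In YS it was 2 or 3 except for 4 with cells weighted equally. The share of all genes was not computed under these alternatives. The log2 ratios of EB over YS of 8 members kept their sign under all 8 alternatives, and that of Klf13, near 0, did so under 5. Shares of cells with a UMI all moved with thinning or a minimum of 2 UMIs. Depth limits Klf5, Klf9 and Klf4 in endothelial-like cells, with 1, 3 and 14 UMIs.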
